A study of Homo sapiens with 8 samples.

Results

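The integrin, laminin and collagen genes were followed in HCT116 cells, an established human colorectal carcinoma line, with or without Fusobacterium nucleatum. Members were all gene symbols that begin with ITGA or ITGB followed by a digit or L, with LAMA, LAMB or LAMC followed by a digit, or with COL, a number, A and a digit. The 2 genes whose symbols begin with ITGB1BP were left out. This gave 81 of the 19475 entries in the expression table, namely 13 integrin alpha, 10 integrin beta, 12 laminin and 46 collagen symbols. By their letters alone the rule also took in 4 genes that encode no such chain: ITGB3BP, a centromere protein, ITGBL1, an integrin beta-like secreted protein, COL4A3BP, the ceramide transporter also called CERT1, and COL4A2-AS2, an antisense transcript. ITGAV and ITGAE, whose alpha chains are named with other letters, are described among the partners.

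Control cells received PBS and FUSO cells received F. nucleatum for 2 h before poly(A) RNA was isolated. RNA fragments carrying N6-methyladenosine (m6A) were pulled down with an antibody (IP) and sequenced, and so was RNA taken before the pull-down (input). Control input, Control IP, FUSO input and FUSO IP were the 4 groups, each with 2 of the 8 samples, and both treatments used the same cell line. The study's methods call the 2 libraries of a group biological replicates, the labels say nothing of separate cultures, and p-values measure only the spread between these libraries. Expression is given as FPKM (fragments scaled by transcript length and by the total mapped) from the 4 inputs, and m6A as peaks called in 4 lists, 1 per replicate. Relative to the input of Control 1, depth was estimated at 1.11 for Control 2, 1.23 for FUSO 1 and 0.911 for FUSO 2, while the absolute depth and that of the IP libraries were unknown. Of 7 epithelial markers 6 had a mean of 1 FPKM or more, with EPCAM at 161.8 to 184.1 FPKM, although VIL1 was at or near 0. Of 7 stroma markers 1 reached this level, ACTA2 at 1.63 to 2.44 FPKM, and none of the 4 leukocyte or 3 endothelial markers did.

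Integrins are surface receptors built from 1 alpha and 1 beta chain, and the pairing decides which matrix protein is bound. Laminins are trimers of 1 alpha, 1 beta and 1 gamma chain that form the sheet of the basement membrane under an epithelium. Collagens are triple helices that form fibrils, networks or cell-bound fibres, mostly made by stromal cells. In gut epithelium, integrin alpha 6 beta 4 holds cells to laminin-332, a trimer that holds the LAMA3 and LAMB3 chains. m6A is laid down mainly in a GGAC-like context, in long internal exons and around the stop codon, and affects the fate of the mRNA.

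The m6A regions on which the account turns are shown by the 25 nt around the GGAC motif nearest the middle of each region, on the strand of the mRNA and on GRCh37. The motif is in capitals and the window is centred on its A. The first 5 are the member regions with the lowest listed p, and the last 2 are the regions of ITGB1, 1 of which was the only region gained with F. nucleatum. A motif marks where the letters occur, not a measured methylated base.

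ITGA3, 3′UTR, chr17:48167171-48167195, plus strand: ggcacttggaGGACctggcgtgctc
ITGA6, 3′UTR, chr2:173369064-173369088, plus strand: caatccctgaGGACtgatttcagag
LAMC1, last exon, chr1:183111855-183111879, plus strand: gcaatctggaGGACatcaggaagac
LAMB3, last exon, chr1:209788482-209788506, minus strand: agtacagcctGGACcacccctggtg
COL6A2, CDS in the last exon, chr21:47552336-47552360, plus strand: gcagcgacgtGGACatggacgtgct
ITGB1, CDS, exon 12, chr10:33200908-33200932, minus strand: gtgcgtctgcGGACagtgtgtttgt
ITGB1, 3′UTR, chr10:33190224-33190248, minus strand: ttttcttcctGGACtattgaaatca

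Expression of the members was compared first, to see which matrix and receptor chains HCT116 cells made and whether their mRNA differed with F. nucleatum. The cells expressed few collagens, and integrin and laminin chains both of epithelia and best known from muscle (ITGA7 and LAMA2). Of the 81 members, 12 were listed at 0 in all 4 inputs (14.8%, against 19.4% of all entries), and 37 more had a mean below 1 FPKM. The other 32 had a mean of at least 1 FPKM and were tested (39.5%, against 56.9% of all entries). The tested members were 6 integrin alpha, 5 integrin beta, 9 laminin and 12 collagen symbols. Most collagens fell below the filter, with 11 of 44 chains tested, against 56.9% of all entries. Of these 44 chains 9 were listed at 0, a share near the 19.4% of all entries. The highest mean among untested members was 0.831 FPKM, in COL4A3. In bulk RNA, fewer cells with a transcript and less of it per cell cannot be told apart.

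None of the 32 tested members differed with F. nucleatum at an adjusted p under 0.05 (limma with Benjamini-Hochberg adjustment over 11088 genes), where 0.667% of all tested genes were higher and 0.135% lower (0.803% together). At an unadjusted p under 0.05, 3 members were higher (LAMB3, LAMA2 and COL1A1), against 7.04% of all tested genes, and 2 were lower (COL9A2 and LAMA5), against 6.45%. Both FUSO libraries lay above both Control libraries in 14 members, against 26.1% of all tested genes, and below them in 6, against 21.1%. In the other 12 members the groups overlapped. The median log2 fold change (FUSO minus Control, on the log2(FPKM + 1) scale, which understates the change of low genes) was 0.0885 over the 32 members and 0.0136 over all tested genes. By family the median was 0.105 in integrin alpha, -0.0035 in integrin beta, 0.164 in laminin and -0.0116 in collagen symbols. Over chains alone it was -0.0598 in integrin beta and -0.0245 in collagen genes.

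**Figure D1:**
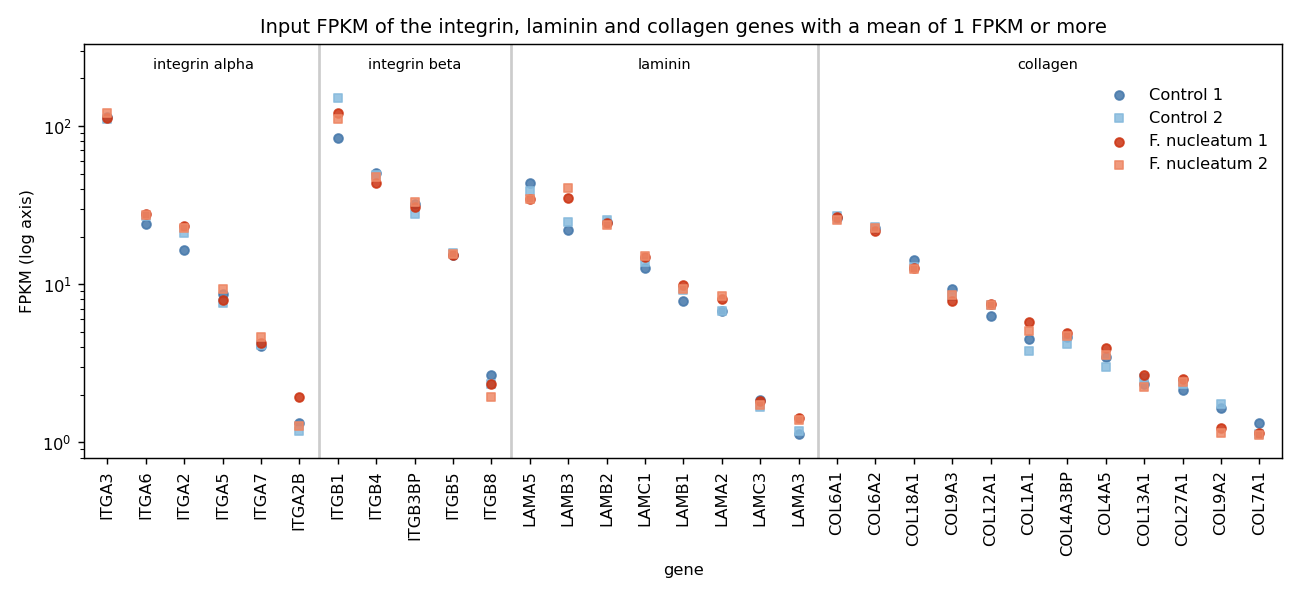
FPKM on a log axis of 31 tested members in the 4 input libraries, 1 point per library, ordered within each family by mean level. ITGA3 and ITGB1 stand highest at about 84 to 150 FPKM, the Control libraries of ITGB1 lie far apart, and LAMB3 is the member whose FUSO points stand most clearly above its Control points.

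The integrin alpha chains, which decide the ligand, were led by ITGA3, a laminin receptor chain. ITGA3 was at 113.9 and 110.6 FPKM in the Control inputs and at 112.9 and 120.1 FPKM in the FUSO inputs. These groups overlapped, and the log2 fold change was 0.05 (SE 0.06). ITGA6, the other main laminin receptor chain of epithelia, was at 24.1 and 26.9 FPKM in the Control inputs and at 27.9 and 27.5 FPKM in the FUSO inputs, which gave 0.12 on the log2 scale (limma adjusted p 0.526, SE 0.07). Its FUSO values were the higher ones by less than the distance between the Control values. ITGA2, the collagen-binding chain, was at 16.5 and 21.0 FPKM in the Control inputs and at 23.3 and 22.5 FPKM in the FUSO inputs. Both FUSO values were above both Control values, but Control 1 stood well below the rest. The log2 fold change of ITGA2 was 0.28, with an SE of 0.12 and a limma adjusted p of 0.377, and it passed the threshold only when Control 2 was left out (limma adjusted p 0.0437, against 0.354 to 0.825 under the other alternatives).

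The remaining alpha chains were lower. ITGA5, the fibronectin receptor chain, was at 8.62 and 7.58 FPKM in the Control inputs and at 7.96 and 9.38 FPKM in the FUSO inputs, and the groups overlapped. ITGA7, a laminin-binding chain best known from muscle, was at 4.07 and 4.11 FPKM in the Control inputs and at 4.22 and 4.65 FPKM in the FUSO inputs. ITGA2B, a platelet chain, was at 1.31 and 1.17 FPKM in the Control inputs and at 1.92 and 1.26 FPKM in the FUSO inputs. All 6 tested alpha chains had a positive log2 fold change, between 0.05 and 0.28, where 5992 of the 11088 tested genes had a positive one. In 3 of these chains both FUSO values were above both Control values, against 26.1% of all tested genes. In none were they below, against 21.1%. The 7 untested alpha symbols had means of at most 0.548 FPKM, among them the leukocyte chains ITGA4 and ITGAL.

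Among the beta chains ITGB1, the common partner of most alpha chains, was the most abundant and the least reproducible. It was at 83.6 and 150.4 FPKM in the Control inputs and at 120.8 and 111.4 FPKM in the FUSO inputs. Both FUSO values lay between the Control values, so that the log2 fold change of 0.05 had an SE of 0.26 and a 95% confidence interval from -0.60 to 0.70. Which Control library was kept decided the sign: the change was -0.37 without Control 1 (limma adjusted p 0.0762) and 0.47 without Control 2 (limma adjusted p 0.0292), and the other alternatives gave an adjusted p of 0.931 to 0.997.

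ITGB4, the partner of ITGA6 in hemidesmosomes, was at 50.4 and 49.0 FPKM in the Control inputs and at 43.8 and 47.8 FPKM in the FUSO inputs. The FUSO values were the lower ones, by -0.12 on the log2 scale (limma adjusted p 0.487, SE 0.07), whereas the change of ITGA6 was positive. ITGB5, a partner of the alpha V chain, stayed within 15.2 to 15.7 FPKM over the 4 libraries, the narrowest spread of these chains, and the 95% confidence interval of its log2 fold change ran from -0.17 to 0.16. ITGB8, which pairs with the alpha V chain too, was at 2.67 and 2.34 FPKM in the Control inputs and at 2.33 and 1.94 FPKM in the FUSO inputs (log2 fold change -0.16, limma adjusted p 0.542). The FUSO values of ITGB8 were the lower ones, though Control 2 and FUSO 1 were almost equal. ITGB3BP, the centromere protein, overlapped between groups at 27.7 to 32.8 FPKM. The other 5 beta symbols, ITGB2, ITGB3, ITGB6, ITGB7 and ITGBL1, had means of at most 0.483 FPKM.

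LAMB3 had the lowest p of all members. This beta chain of laminin-332 was at 22.0 and 24.8 FPKM in the Control inputs and at 34.98 and 40.7 FPKM in the FUSO inputs. The FUSO values were well above the Control values, and the gap between the groups was larger than the distance within either group. The mean went from 23.4 ± 1.97 to 37.8 ± 4.01 FPKM (SD, n = 2), a ratio of 1.62 and a log2 fold change of 0.67 (SE 0.10, 95% confidence interval 0.42 to 0.92). Its limma adjusted p was 0.0783 and missed the threshold. It passed when Control 2 was left out (limma adjusted p 0.0255), while the adjusted p was 0.0726 to 0.399 in the fits without another library. It passed with a replicate block too (limma adjusted p 0.017), although the labels do not say whether same-numbered Control and FUSO libraries are pairs. The limma adjusted p was 0.0830 to 0.184 under other pseudocounts, filters, scalings and priors. The log2 fold change lay between 0.56 and 0.78 under all of these.

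LAMA3, the alpha chain of laminin-332, was at 1.13 and 1.18 FPKM in the Control inputs and at 1.42 and 1.39 FPKM in the FUSO inputs (log2 fold change 0.15, limma adjusted p 0.503). Both FUSO values were thus the higher ones for LAMA3 as well as for LAMB3. FPKM are per length of transcript, and on this scale LAMA3 was below LAMB3 in every library.

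Laminin-511, a trimer of LAMA5, LAMB1 and LAMC1 found throughout the gut, showed both directions. LAMA5 was at 43.4 and 38.6 FPKM in the Control inputs and at 34.8 FPKM in both FUSO libraries, which were thus the lower ones. The change of -0.23 on the log2 scale had an SE of 0.07, a 95% confidence interval of -0.42 to -0.04 and a limma adjusted p of 0.307. LAMB1 was at 7.86 and 9.14 FPKM in the Control inputs and at 9.88 and 9.36 FPKM in the FUSO inputs (log2 fold change 0.16, limma adjusted p 0.485). LAMC1 was at 12.6 and 13.9 FPKM in the Control inputs and at 14.9 and 15.1 FPKM in the FUSO inputs (log2 fold change 0.17, limma adjusted p 0.397). For both of these chains the FUSO values were the higher ones, by a margin smaller than the distance between the Control values.

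LAMA2, the alpha chain of laminins best known from muscle, was at 6.80 and 6.81 FPKM in the Control inputs and at 8.09 and 8.41 FPKM in the FUSO inputs. The replicates lay close together and the groups apart, yet the log2 fold change of 0.24 (SE 0.07, 95% confidence interval 0.06 to 0.43) had a limma adjusted p of 0.287. LAMB2, a beta chain that can take the place of LAMB1, was at 24.9 and 25.3 FPKM in the Control inputs and at 24.3 and 23.7 FPKM in the FUSO inputs (log2 fold change -0.06, limma adjusted p 0.681). LAMC3 overlapped between groups at 1.66 to 1.86 FPKM. Of the 9 tested laminin chains, 6 had both FUSO values above both Control values, against 26.1% of all tested genes. In 2 they were below, against 21.1%, and 1 overlapped. None of the 9 passed the adjusted threshold. LAMA1 and LAMB4 were listed at 0, and LAMA4 was at 0.259 and 0.242 FPKM in the Control inputs and at 0.335 and 0.395 FPKM in the FUSO inputs.

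**Figure D2:**
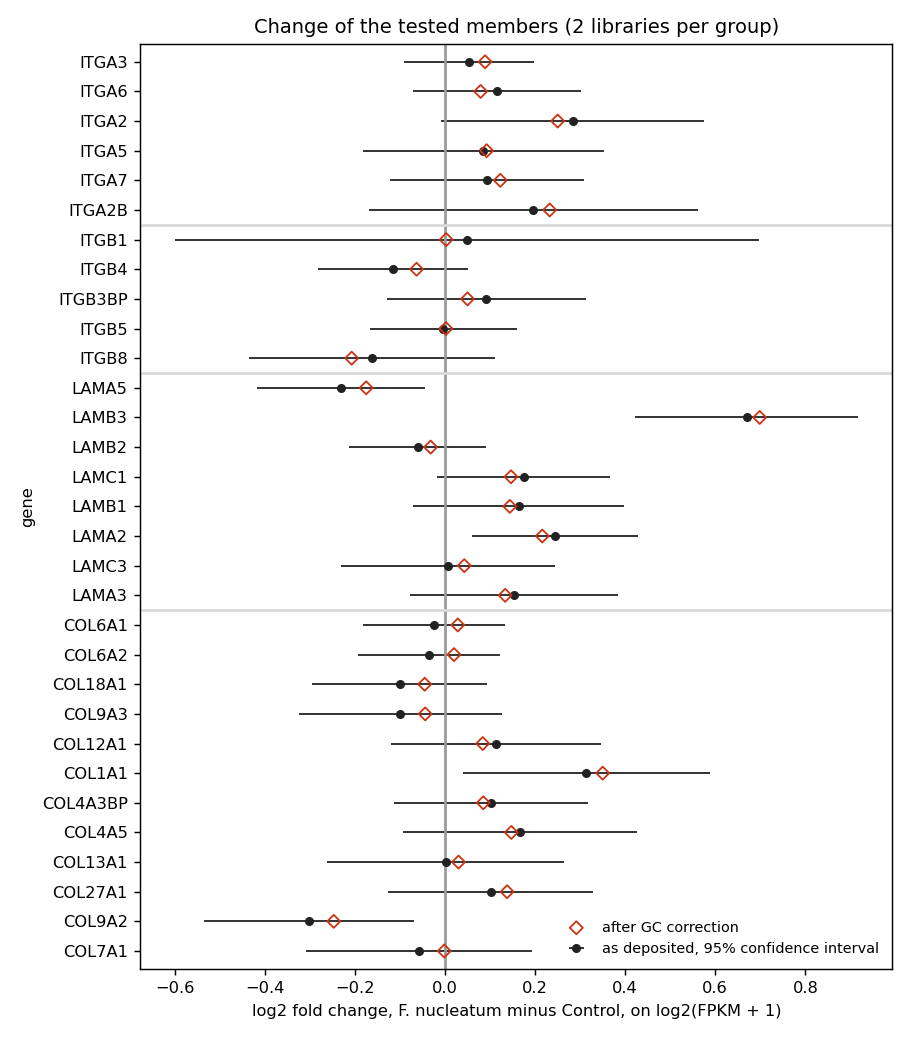
Log2 fold change of 31 tested members on log2(FPKM + 1), FUSO minus Control, with its 95% confidence interval from limma (2 libraries per group); open diamonds give the change after each library was corrected for transcript GC content. The interval of LAMB3, from 0.42 to 0.92, lies farthest from 0, that of ITGB1 is the widest, and the diamonds lie close to the points.

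Collagens were then grouped by the structures they build. Type VI collagen, which forms beaded filaments near cells, was the most abundant. COL6A1 was at 26.2 and 27.0 FPKM in the Control inputs and at 26.7 and 25.5 FPKM in the FUSO inputs, and COL6A2 at 22.7 and 22.9 FPKM against 21.7 and 22.8 FPKM. Both overlapped between groups, with 95% confidence intervals of -0.18 to 0.13 and -0.19 to 0.12 on the log2 scale. COL7A1, the anchoring fibril of epithelia, overlapped as well, at 1.11 to 1.31 FPKM. The third chain gene of type VI collagen, COL6A3, and the other 3 beaded or anchoring genes had means of at most 0.139 FPKM or were listed at 0.

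Of 11 fibrillar collagens, 2 were tested. COL1A1, a chain of the main fibril of connective tissue, was at 4.51 and 3.78 FPKM in the Control inputs and at 5.72 and 5.05 FPKM in the FUSO inputs. Its FUSO values were the higher ones by 0.31 on the log2 scale (95% confidence interval 0.04 to 0.59, SE 0.11, limma adjusted p 0.333). COL1A2, which encodes the partner chain in type I collagen, was listed at 0 in all 4 libraries. COL27A1 was at 2.13 and 2.32 FPKM in the Control inputs and at 2.52 and 2.40 FPKM in the FUSO inputs (log2 fold change 0.10, limma adjusted p 0.645).

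FACIT collagens, which sit on the surface of fibrils, had 3 tested members of 10. COL9A2 was at 1.64 and 1.75 FPKM in the Control inputs and at 1.22 and 1.15 FPKM in the FUSO inputs. The FUSO values were the lower ones, and the log2 fold change of -0.30 (SE 0.09, 95% confidence interval -0.54 to -0.07) was the lowest of the members, with a limma adjusted p of 0.288. COL9A3, a partner chain in type IX collagen, overlapped between groups at 7.82 to 9.34 FPKM, and the gene of the remaining chain, COL9A1, was listed at 0. COL12A1 was at 6.31 and 7.37 FPKM in the Control inputs and at 7.50 and 7.41 FPKM in the FUSO inputs, where Control 2 was almost level with the FUSO values.

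Type IV collagen forms the network of the basement membrane. Its widespread chains COL4A1 and COL4A2 were at or below 0.0436 FPKM in every library, whereas COL4A5 was at 3.48 and 2.98 FPKM in the Control inputs and at 3.96 and 3.54 FPKM in the FUSO inputs (log2 fold change 0.17, limma adjusted p 0.514). COL4A3 and COL4A4, neighbours on chromosome 2 on opposite strands, were just under the filter. COL4A3 was at 0.597 and 0.727 FPKM in the Control inputs and at 0.985 and 1.01 FPKM in the FUSO inputs, and COL4A4 was at 0.685 and 0.687 against 0.956 and 0.924 FPKM. In both genes the FUSO values were the higher ones, and in a fit with no filter their limma adjusted p was 0.314 and 0.333. Of the COL4A3 mRNA, 10.4% overlaps the gene MFF-DT on the opposite strand, so its values may hold reads of that gene. COL18A1, a basement membrane collagen that is the source of endostatin, was at 14.2 and 12.8 FPKM in the Control inputs and at 12.6 and 12.4 FPKM in the FUSO inputs. Of its mRNA, 28.9% overlaps SLC19A1 on the opposite strand, and whether the counting used strand was not given in the sources used here, so its values may hold reads of that gene. COL13A1, a membrane collagen, overlapped at 2.24 to 2.67 FPKM, and COL4A3BP, the ceramide transporter, was at 4.61 and 4.19 FPKM in the Control inputs and at 4.88 and 4.70 FPKM in the FUSO inputs.

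GC content moved with the direction of change. Over the 32 tested members the Pearson correlation of transcript GC content with log2 fold change was -0.323, and over 10990 tested genes it was -0.137. These are correlations across genes of the same 4 libraries, given as a description. The median GC content was 50.7% in members with a positive and 64.8% in members with a negative log2 fold change. Once each library had been corrected for GC content, the correlation was -0.132 over the members, and their median log2 fold change was 0.0815. LAMB3, with a GC content of 59.5%, had a log2 fold change of 0.70 after correction, and LAMA5, with 66.4%, had one of -0.17. COL6A1 and COL6A2 changed sign with it, to 0.03 and 0.02. Whether GC recovery had a part in the changes was not tested.

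Other genes of adhesion were read from the same fit in 3 lists, chosen with earlier results of these data known. Counts of calls in these lists are thus a description and no test of the lists. Of 21 other receptor and matrix genes 12 were tested, and 2 rose, against 0.667% of all tested genes. SDC4, a syndecan that acts beside integrins in focal adhesions, was at 72.7 and 68.5 FPKM in the Control inputs and at 116.7 and 124.9 FPKM in the FUSO inputs (log2 fold change 0.77, limma adjusted p 0.0116). THBS1, a secreted matrix glycoprotein, was at 2.47 and 3.14 FPKM in the Control inputs and at 6.08 and 5.96 FPKM in the FUSO inputs (log2 fold change 0.89, limma adjusted p 0.0394). The FUSO values of both stood well above their Control values, and the call on THBS1 was lost after GC correction (limma adjusted p 0.0513), after quantile normalization (0.0572), with no trend (0.0541) and with no filter (0.145). Both calls were lost without FUSO 1 (limma adjusted p 0.137 for SDC4 and 0.292 for THBS1) and without FUSO 2 (limma adjusted p 0.155 and 0.265), where the log2 fold changes stayed within 0.72 to 0.90. ITGAV, the alpha V chain, was at 5.20 and 6.47 FPKM in the Control inputs and at 6.91 and 6.41 FPKM in the FUSO inputs and was not called, and ITGAE, which binds E-cadherin, was at 2.49 to 3.25 FPKM and was not called either. At an unadjusted p under 0.05 there were 2 lower genes in this list, AGRN and CD151, against 6.45% of all tested genes. AGRN, a basement membrane proteoglycan, was at 29.3 and 25.1 FPKM in the Control inputs and at 22.5 and 23.0 FPKM in the FUSO inputs (log2 fold change -0.24, limma adjusted p 0.346). CD151, a tetraspanin that binds laminin-binding integrins, was at 217.2 and 203.8 FPKM in the Control inputs and at 183.6 and 189.0 FPKM in the FUSO inputs (log2 fold change -0.17, limma adjusted p 0.304). In both the FUSO values were the lower ones.

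Of 36 genes of collagen maturation and matrix turnover 24 were tested, and 2 rose, against 0.667% of all tested genes. This list too was chosen with earlier results known, so the count is a description. The 2 genes that rose form a ligand and receptor pair. PLAU, the urokinase protease, was at 27.8 and 25.4 FPKM in the Control inputs and at 80.7 and 85.9 FPKM in the FUSO inputs (log2 fold change 1.61, limma adjusted p 0.0014). PLAUR, its receptor on the cell surface, was at 41.1 and 42.9 FPKM in the Control inputs and at 76.9 and 80.1 FPKM in the FUSO inputs (log2 fold change 0.89, limma adjusted p 0.0060). Neither gene overlapped between the groups. The call on PLAU was kept without any 1 library, with a limma adjusted p of at most 0.0445, and that on PLAUR was lost without FUSO 1 or FUSO 2 (limma adjusted p 0.109 and 0.106). At an unadjusted p under 0.05 there were 4 higher genes, PLAU, PLAUR, P4HA2 and CTSB, against 7.04% of all tested genes. There were 3 lower ones, P3H3, P4HB and MMP7, against 6.45%. Of the genes that hydroxylate collagen proline, the alpha subunit genes P4HA1 and P4HA2 had log2 fold changes of 0.12 and 0.18. P4HB, which encodes their partner subunit, had -0.13. P3H1 had 0.19 (limma adjusted p 0.414), with both FUSO values above both Control values, whereas P3H3 had -0.34. P3H3 was at 8.94 and 8.93 FPKM in the Control inputs and at 6.57 and 7.11 FPKM in the FUSO inputs (limma adjusted p 0.205). The FUSO values of P3H3 were thus the lower ones, while SERPINH1, the collagen chaperone gene, overlapped between the groups (log2 fold change 0.20).

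Of 33 genes of the adhesion machinery inside the cell 31 were tested and none passed the adjusted threshold, while at an unadjusted p under 0.05 there were 7 higher, against 7.04% of all tested genes, and 1 lower, against 6.45%. VCL, which links talin to actin, was at 47.5 and 54.3 FPKM in the Control inputs and at 67.3 and 64.3 FPKM in the FUSO inputs (log2 fold change 0.37, limma adjusted p 0.192). ZYX, a focal adhesion protein, was at 70.5 and 64.5 FPKM in the Control inputs and at 80.4 and 87.7 FPKM in the FUSO inputs (log2 fold change 0.31, limma adjusted p 0.215). In both the FUSO values were the higher ones. Others at this unadjusted p were FERMT2, ACTN1, FLNA and ILK, with log2 fold changes of 0.16 to 0.23, and DST, the hemidesmosome linker, with -0.23. The median log2 fold change of the machinery list was 0.0175.

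m6A peaks were then compared, to see where the members' mRNAs carried m6A and whether it differed with F. nucleatum. The lists held 48 and 49 member peaks in Control and 45 and 49 in FUSO, on 29, 27, 26 and 29 genes in the same order. The difference of -1.5 peaks per list was within the spread between replicates (two-sided exact permutation p of 1, with 0.333 the smallest that 2 lists against 2 allow). Peaks of the 4 lists that shared at least 1 bp of exon on the same strand were merged to regions, which gave 61 regions in 31 members out of 22001 regions in all. A peak was called in all 4 lists at 32 of the 61 regions, a share of 52.5% against 51.5% of all regions. There were 6 regions in 3 lists, 9 in 2 lists and 14 in 1 list.

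No member region was lost, meaning called in both Control lists and neither FUSO list, where 2.64% of all regions were, and 1 was gained, the reverse, where 2.38% were. The gained region lay in the CDS of ITGB1, on exon 12 and a neighbouring exon (chr10:33200545-33200999, minus strand, 240 nt), and its GGAC window is printed above. Its listed p was 1.3e-08 in FUSO 1 and 2.1e-05 in FUSO 2. Since 1 of these was above 1e-05, no region counted as gained when only peaks with a listed p of at most 1e-05 were kept. ITGB1 mRNA was not lower in Control 2 than in the FUSO libraries, at 150.4 FPKM against 120.8 and 111.4 FPKM, but was lower in Control 1, at 83.6 FPKM. The lists hold no value where no peak was called, so the enrichment at this site in Control is not known.

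In its 3′UTR, ITGB1 had a region called in all 4 lists (chr10:33189932-33190439, minus strand, 508 nt). It merged peaks named ITGB1 with peaks named SNORA86, another gene. The lowest p of the merged peaks in each list was taken, and which of the names that peak carried was not examined. The listed p there was 3.2e-06 and 1.5e-07 in Control and 5e-17 and 5e-22 in FUSO, so both FUSO values were the lower ones. The listed p of a peak depends on fragment number as well as on enrichment and ranks peaks only within a list. Among the 32 member regions in all 4 lists the listed p was lower in both FUSO lists than in both Control lists at 6, against 15.7% of all such regions, and higher at 6, against 18.9%. The regions with a lower FUSO p were, beside ITGB1, in ITGB8, LAMA5, LAMB3, COL6A1 and COL13A1, and those with a higher p at the 5′ end of ITGA3 and in ITGB5, LAMB1, LAMB2, COL27A1 and COL6A2.

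Of the 5 regions with the lowest listed p, 4 were on integrin and laminin mRNAs. ITGA3 had the lowest listed p, given as 0 in all 4 lists, over a region that covered its stop codon and almost all of its 3′UTR (chr17:48165163-48167849, plus strand, 1589 nt in 3 exon blocks, 8 GGAC motifs). The region of ITGA6 began just before the stop codon and reached 621 nt past it (chr2:173362779-173369417, plus strand, 779 nt), with a listed p of 1e-139 and 1e-180 in Control and 1e-197 and 1e-180 in FUSO. ITGA5 had a similar region over its stop codon and 3′UTR (chr12:54789045-54791200, minus strand), with a listed p between 4e-60 and 6.3e-74. In these 3 alpha chains the region was called in every list, whereas ITGA2, at a higher level of mRNA than ITGA5, had no peak in any list.

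In LAMB3 1 region was found, across the stop codon and almost the whole 3′UTR (chr1:209788218-209790755, minus strand, 690 nt, 7 GGAC motifs). Its listed p was 4e-92 and 1.3e-66 in Control and 1e-121 and 1e-102 in FUSO, where LAMB3 mRNA was also the higher. LAMA3, its partner in laminin-332, had no peak. The region of LAMC1 at its stop codon (chr1:183105589-183112448, plus strand, 1171 nt in 4 exon blocks) had a listed p of 1e-104 and 1e-129 in Control and 1e-129 and 1e-107 in FUSO. LAMA5, with an mRNA of 11426 nt and 80 exons, had 1 region in all 4 lists, in its short 3′UTR. Another region, of 120 nt in exon 1, was called in Control 1 alone. Together these regions covered 3.37% of the mRNA.

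Among beta chains ITGB4 had a region at its stop codon (chr17:73753346-73753779, plus strand, 329 nt) with a listed p of 2e-21 and 2e-15 in Control and 2.8e-06 in FUSO 2, and no peak was called in FUSO 1. The absence was thus in 1 of the 2 FUSO lists. ITGB5 had a region in the CDS (chr3:124492683-124515637, minus strand) with a listed p of 5e-27 and 1e-25 in Control and 6.9e-09 and 5.6e-09 in FUSO, while the level of its mRNA was 15.2 to 15.7 FPKM in all 4 inputs. The region after its stop codon had 3.2e-45 and 3.2e-19 in Control and 6.3e-21 and 1.6e-22 in FUSO, so that there the lists of the groups overlapped.

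mRNAs of collagen chains carried 31 of the 61 regions. Of these, 12 (38.7%) were called in all 4 lists, against 51.5% of all regions. The counts were 12 of 17 in laminin, 4 of 5 in integrin alpha and 4 of 7 in integrin beta mRNAs. Of the 14 regions seen in a single list, 11 were on mRNAs of collagen chains and 1 on COL4A3BP, which has no other. The share of single-list regions over all genes was not computed, so this count is a description. The collagen chains with such regions ranged in mean level from 0.813 FPKM in COL4A4 to 26.3 FPKM in COL6A1. Whether level had a part was not tested. The strongest collagen region was in the last exon of COL6A2 (chr21:47549687-47552763, plus strand, 929 nt), with a listed p of 1e-102 and 2.5e-69 in Control and 3.2e-92 and 1e-51 in FUSO. COL6A1 had its main region in the last exon as well (chr21:47423345-47424903, plus strand, 1559 nt), and the regions of COL6A1 together covered 52.8% of its mRNA. The region over the 3′UTR of COL18A1 was in all 4 lists (2.5e-80 to 5e-51), where exons of SLC19A1 lie on the opposite strand.

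The coding part of collagens is built of very short exons, most of which encode whole triplets of the helix. In the collagen chains the median transcript had 48 exons and a median internal exon of 57 nt, against 114 nt in integrin alpha, 162 nt in integrin beta and about 150 nt in laminin chains. The number of GGAC motifs per kb of mRNA was 8.65 in collagen, 4.58 in integrin alpha, 4.89 in integrin beta and 4.59 in laminin chains (medians over genes). Thus collagen mRNAs held the motif most densely. In COL6A1 and COL6A2 single regions ran over 11 and 10 exon blocks of the helix, around exons of 54 and 63 nt. These multi-exon regions were called in 3 lists and 2 lists. Of the collagen regions placed on internal exons, 2 were called in all 4 lists. They lay in the longest internal exon of COL18A1, of 545 nt, and of COL27A1, of 1775 nt.

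**Figure D3:**
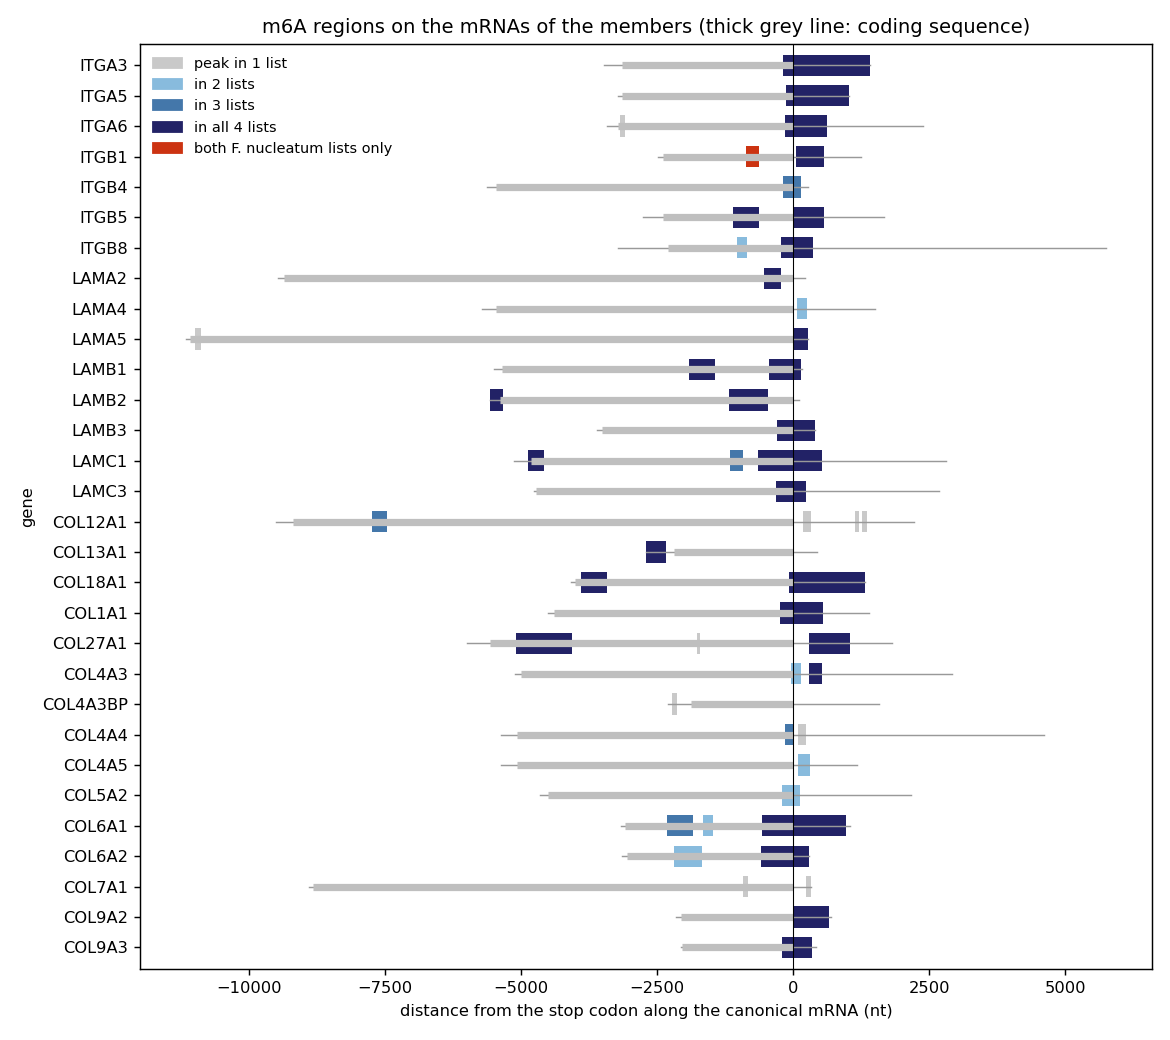
m6A regions along the canonical mRNAs of 30 members with a region, by distance from the stop codon in nt (6 regions outside these transcripts are left out); thin lines are UTRs, thick grey lines the CDS, and the colour gives the number of peak lists. Dark blocks, called in all 4 lists, gather around the stop codon, and the single region called in both FUSO lists alone lies in the CDS of ITGB1.

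By the midpoint, the position along the mRNA was close to that of all genes. By the start of the peak it was less close. The stop codon class then held 21.4% of member peaks against 11.1% of all peaks, and 3′UTRs 13.3% against 21.7%. Of the 61 regions 54 could be placed on canonical mRNAs, and 31 of these had their midpoint in the last exon (57.4%, against 64.6% of all placed regions), 16 in an internal and 7 in the first exon. Of the 16 internal ones 7 (43.8%) lay in the longest internal exon of the transcript, against 51.7% for all genes with at least 10 exons, and these 7 were in ITGB1, ITGB5, ITGB8, LAMB1, COL12A1, COL18A1 and COL27A1. The 9 others included LAMA2, LAMB2 and LAMC1, whose exons under the region were 131 to 208 nt long. By peaks, the share in the CDS was 41.9% and 41.9% in Control and 38.1% and 35.6% in FUSO lists, and 3′UTRs took 37.2% and 32.6% of Control peaks, and 42.9% and 42.2% of FUSO peaks. The FUSO lists were thus the lower ones in the CDS and the higher ones in the 3′UTR. Placed by the start of the peak, the FUSO lists were again lower in the CDS (62.8% and 67.4% in Control, 52.4% and 53.3% in FUSO), whereas the 3′UTR shares overlapped (13.95% and 11.6% in Control, 11.9% and 15.6% in FUSO). The share in the stop codon class was then higher in FUSO (18.6% and 13.95% in Control, 28.6% and 24.4% in FUSO), while by the midpoint it was lower (16.3% and 20.9% in Control, 14.3% and 15.6% in FUSO). By the midpoint, over all genes the CDS share was 46.0% and 47.0% in Control and 44.4% and 44.2% in FUSO lists. The 3′UTR share was 32.8% and 31.5% against 34.9% and 35.3%, in the same order. By the start of the peak, the CDS share over all genes was 57.8% and 57.9% in Control and 56.7% and 56.9% in FUSO lists. The stop codon share was then 10.9% and 10.4% against 11.2% and 11.7%, in the same order.

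GGAC was found in 46 of the 61 member regions and in 30 of the 32 called in all 4 lists. The exceptions among the latter were the stop codon region of ITGB8 and a region of LAMB1 with its midpoint in the CDS. Search was on the strand of the mRNA, over the exon blocks of the region. As longer regions hold more motifs by length alone, the share in regions of all 4 lists is a description.

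A peak was found in 27 of the 32 members at 1 FPKM or more, a share of 84.4% against 83.9% of all genes at that level, and in 4 of the 49 below it (8.16%, against 11.4%). The 5 tested members with no peak in any list were ITGA2, ITGA2B, ITGA7, ITGB3BP and LAMA3. ITGB3BP and ITGA2 stood out among these by level, at 27.7 to 32.8 and 16.5 to 23.3 FPKM. The 4 members with a peak below 1 FPKM were COL4A3, COL4A4, COL5A2 and LAMA4. COL4A3, at 0.597 to 1.01 FPKM, had a region in its 3′UTR called in all 4 lists (chr2:228176869-228177109, plus strand), with a listed p between 0.0001 and 0.0018. Part of its mRNA, 10.4%, overlaps MFF-DT on the opposite strand, and whether the region does was not examined.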

How the data were processed

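m6A sequencing of HCT116 cells gave 8 samples, input and IP of Control and FUSO with 2 libraries each. Adapter trimming with Trim Galore 0.3.3, alignment to hg19 with HISAT2 2.1.0 and StringTie are named in the submitters' processing notes. The deposited expression values were FPKM, which the authors computed for the input libraries. They scale for length and total but not for differences in GC recovery between libraries. The 4 deposited peak lists, 1 per replicate, held exon blocks, a gene name and a score read as the authors' p-value, and no fold enrichment. The study's methods name MACS2, while the layout of the lists is that of another caller, so which program made them was not settled here.

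Members and gene lists were chosen with earlier results of these data known. For expression, limma 3.58.1 (R 4.3.3, lmFit, eBayes with trend, no covariate) was fitted to log2(FPKM + 1) of the 11088 genes whose mean over the 4 inputs reached 1 FPKM, adjusted by Benjamini-Hochberg over all of them, with calls at 0.05. The count model of the study could not be used on FPKM. Members were named with values when they had an unadjusted p under 0.05, were among the 5 highest of a family, had a lost or gained region or 1 of the 5 lowest listed p, or were no chain despite their letters. Partner chains and any others named were chosen after their values were seen. Relative input depth was estimated from ratios of genes at or below 0.05 FPKM, and precision rests on 2 libraries per group.

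Peaks were assigned by gene name, merged where exon blocks shared at least 1 bp on the same strand, and placed on canonical transcripts of GENCODE release 44 on GRCh37 where 90% of their bases fitted. The midpoint set the class, with the stop codon class within 100 nt of the stop. All 81 members had a canonical transcript, COL4A3BP by its newer symbol CERT1. Of the genes counted, 1 member and 1 gene of the adhesion machinery are not reported here by name. Statistics were tested on simulated data. Other steps used Python 3.11.15, NumPy 2.4.6 and pandas 2.3.3. Alternatives were another pseudocount, no filter, quantile and median-ratio scaling, GC correction in 20 bins, no trend, a replicate block, each library left out, a listed p of at most 1e-05, a reciprocal overlap of 50%, assignment by annotation and the start of the peak.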

Additional observations from a re-analysis of the deposited data

How the results depend on the processing

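Over the 32 tested members and 352 alternative fits the direction was kept in 333, and 23 of the 32 kept it under every alternative. After GC correction the log2 fold change turned to 0.0021 in ITGB5, 0.0285 in COL6A1 and 0.0201 in COL6A2. In LAMC3 and COL13A1, both close to 0, it turned to -0.0643 and -0.0547 after quantile normalization and to -0.00104 and -0.00741 after median-ratio scaling. Leaving out 1 library turned it in 8 members, where it ranged from -0.0242 to 0.0171 in ITGB5, from -0.0586 to 0.0096 in COL6A1, from -0.372 to 0.468 in ITGB1, from -0.0109 to 0.194 in ITGB3BP, from -0.0441 to 0.0576 in LAMC3, from -0.0878 to 0.0906 in COL13A1, from -0.120 to 0.0059 in COL7A1 and from -0.0204 to 0.191 in ITGA5. Calls of members at an unadjusted p were 7 higher with no filter, where COL4A3, COL4A4, LAMA4 and COL20A1 were added and all members above 0 were tested, and 1 lower after GC correction. The median over members was 0.0241 with no filter and 0.0595 after quantile normalization. Leaving out a library, which left 1 library in a group, gave a median over members of 0.049 to 0.0783. No member region was gained at a listed p of at most 1e-05, and 1 was lost at a reciprocal overlap of 50%. With 3 lists, which have fewer conditions to meet, 2 to 6 were lost and 2 to 4 gained. The shares over all genes or regions under the alternatives are not given here. Counts of calls under them therefore say nothing particular to the members. The difference in peaks per list was 1 at a listed p of at most 1e-05 and between -3.5 and 0.5 without a list. By the start of the peak, 6.36% were 5′UTR, 59.0% CDS, 21.4% stop codon and 13.3% 3′UTR peaks, against 5.20%, 39.3%, 16.8% and 38.7% by the midpoint. Apart from the smaller samples and the added genes, the cause was not tested. Same-numbered libraries did not deviate together (correlation of their deviations from the group means 0.0243). This cannot settle whether they were handled as pairs, which the labels do not say. With a replicate block 1 member was called, LAMB3 (limma adjusted p 0.017), and 5 were higher at an unadjusted p. With 2 libraries per group and no read counts, a difference in a member below 1 FPKM was hardly detectable, and the absence of a peak there says little about m6A.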
